A study of Mus musculus with 38 samples.

Results

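Genes of the MHC class II pathway were examined in the mouse hippocampus, in a study of the small molecule anle138b in a transgenic model of amyloid pathology. The 6 genes H2-Aa, H2-Ab1, H2-Eb1, Cd74, Ciita and H2-DMa were chosen by name, out of 48709 genes counted in each mouse, and were found through their Ensembl identifiers. RNA from the hippocampus of 38 C57BL/6 mice in 8 groups had been sequenced. The mice were WT or carried the APPdelta9 genotype, called APPPS1ΔE9 below, whose transgenes for mutant human APP and presenilin 1 are driven by a prion promoter. Each received chow with anle138b or placebo chow for 4 months. At 6 months of age, after treatment from 2 months on (the pre-plaque group), each genotype had 4 mice on placebo chow and 4 on anle138b chow. At 10 months of age, after treatment from 6 months on (the post-plaque group), there were 5 WT mice on each chow, and 5 APPPS1ΔE9 mice on placebo and 7 on anle138b chow.

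MHC class II molecules present peptides from endocytosed proteins to CD4+ T cells. An α and a β chain (H2-Aa with H2-Ab1 for I-A, and a separate α chain with H2-Eb1 for I-E) assemble on the invariant chain CD74, which is then degraded by cathepsins, and the exchange factor H2-DM, of which H2-DMa is the α subunit, helps load the peptide. CIITA is the coactivator that switches these genes on, and its own transcription responds to interferon γ. In a healthy brain most parenchymal cells carry little class II, whereas macrophages and dendritic cells at the borders, in the meninges and the choroid plexus, carry much more, and some microglia acquire it around amyloid plaques. C57BL/6 mice do not make the I-E α chain, and the listed pseudogene of that chain, H2-Ea-ps, had 0 counts in 37 of the 38 libraries and at most 1 count.

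Total counts per library lay between 15847985 and 31895808, with a median of 24530658. App and Prnp, whose reads the transgene adds to, were higher by 1.11 to 1.26 and 1.27 to 1.36 on the log2 scale in APPPS1ΔE9 than in WT mice, and the App level lay between 1516 and 1806 CPM, which are TMM-normalized counts scaled to library size, in every WT mouse and between 3235 and 4316 CPM in every APPPS1ΔE9 mouse. For the 4 placebo-treated WT mice of 6 months the title and another label disagree on the genotype, and their App level of 1612 to 1781 CPM was that of the other WT mice. The markers of hippocampal neurons summed to 1698 to 3593 CPM and were present in every library. Most groups of different genotype were sequenced on different lanes, so that genotype and lane cannot be told apart. In 12 of the 38 mice the summed level of Y-linked genes was under 10 CPM, among them 5 of 8 WT mice of 6 months, 6 of 10 WT mice of 10 months and 1 of 12 APPPS1ΔE9 mice of 10 months, although the study states that its mice were male. Ttr, the main transcript of the choroid plexus epithelium, exceeded 10 times its median of 119.5 CPM in 10 of 16 mice of 6 months and in 1 of 22 mice of 10 months.

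The promoters of class II genes share an upstream module whose X and Y boxes are bound by the RFX complex and NF-Y, the platform to which CIITA docks. Windows of the 250 bases before the start of the gene, from RefSeq on GRCm38.p6, are shown for H2-Aa and H2-Eb1. They are the 2 members in whose windows a pair of short motifs was found. These genes also rose and fell together from mouse to mouse, and a link of this to the motifs was not tested. No window was matched for H2-Ab1 and Ciita, and none was examined for Cd74. The motifs were GCAAC, a core of the X box, and GATTGG, the Y box, in this order with 20 to 35 bases between them, searched on both strands. They stand in capitals, and each sequence is written 5′ to 3′ on the strand of the gene.
H2-Aa, chr17:34287824-34288073, minus strand: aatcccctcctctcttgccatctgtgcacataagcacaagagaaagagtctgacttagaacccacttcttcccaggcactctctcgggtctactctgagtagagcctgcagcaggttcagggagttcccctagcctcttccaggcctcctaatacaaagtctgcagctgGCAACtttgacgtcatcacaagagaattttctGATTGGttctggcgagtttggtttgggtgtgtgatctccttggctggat
H2-Eb1, chr17:34305617-34305866, plus strand: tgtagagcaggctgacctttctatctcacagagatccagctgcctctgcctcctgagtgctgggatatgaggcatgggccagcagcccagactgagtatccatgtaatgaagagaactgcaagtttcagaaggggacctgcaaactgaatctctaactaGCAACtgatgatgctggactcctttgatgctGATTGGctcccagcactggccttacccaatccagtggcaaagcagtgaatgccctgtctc
The first letter of the pair lies 81 bases before the start of H2-Aa and 91 bases before the start of H2-Eb1, with 27 and 26 bases between the motifs. Among all 32851 windows of this length, 29.9% held GCAAC, 14.6% held GATTGG and 0.24% held the pair. The pair was also found in the windows of H2-Eb2, H2-Oa and H2-Ob, and was not found in the windows of H2-DMa, H2-DMb1 and H2-DMb2. The windows of H2-DMa, 34122582 to 34122831 and 34125268 to 34125517, lie past the start of that gene in the annotation used here (34119541). The bases before that start were not among them. A match of letters is a description and not a measured binding site.

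The 6 genes were low in hippocampal RNA, H2-DMa apart. On GRCm38, H2-Aa (ENSMUSG00000036594, chromosome 17, 34282744 to 34287823, minus strand), H2-Ab1 (ENSMUSG00000073421, chromosome 17, 34257689 to 34269419, plus strand), H2-Eb1 (ENSMUSG00000060586, chromosome 17, 34305867 to 34316674, plus strand) and H2-DMa (ENSMUSG00000037649, chromosome 17, 34119541 to 34139101, plus strand) lie in the MHC. Cd74 (ENSMUSG00000024610, chromosome 18, 60803848 to 60812652, plus strand) and Ciita (ENSMUSG00000022504, chromosome 16, 10480059 to 10528418, plus strand) lie elsewhere. Per kilobase of exon, the mean level over the 38 mice was highest for H2-DMa, at 4.27 ± 0.368 CPM (SD), followed by Cd74 at 3.24 ± 1.57. H2-Eb1 followed at 1.15 ± 0.647, then H2-Ab1 at 0.684 ± 0.344 and H2-Aa at 0.663 ± 0.428, and Ciita was lowest at 0.158 ± 0.0534. Of the neighbours in this order, H2-Ab1 and H2-Aa differed by much less than the SD of either, and H2-Eb1 and H2-Ab1, like H2-DMa and Cd74, differed by less than the larger but more than the smaller of their SDs, whereas Ciita lay below the rest. The counts behind these levels were small, from 16 to 175 reads for H2-Aa, from 8 upward for H2-Ab1, 19 to 147 for H2-Eb1, 34 to 286 for Cd74 and 16 to 61 for Ciita, but 219 to 492 for H2-DMa. The exons of Ciita and H2-DMa overlap those of Dexi and Brd2 on the other strand, both of them more highly counted, and whether the counting used the strand was not given in the sources used here.

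For the 3 chains and Cd74, single mice differed far more than groups. Over the 38 mice, H2-Aa ranged from 0.540 to 6.44 CPM, H2-Ab1 from 0.312 to 3.98, H2-Eb1 from 0.641 to 5.11 and Cd74 from 1.33 to 12 CPM. Ciita ranged from 0.638 to 2.44 CPM, with group means of 0.937 to 1.95 CPM, and H2-DMa only from 12.4 to 16.9. The 3 chains and Cd74 were on average higher at 6 than at 10 months, with means of 3.56 and 1.77 CPM for H2-Aa, 2.20 and 1.43 for H2-Ab1, 3.10 and 1.62 for H2-Eb1 and 6.24 and 4.85 for Cd74. Ciita went the other way, with means of 1.05 CPM at 6 and 1.84 CPM at 10 months, and H2-DMa stood at 14.6 and 14.8 CPM. Transcripts of the choroid plexus moved with the age as well, as described below. In the mice with low Ttr alone, 6 at 6 months and 21 at 10 months, the medians were 3.5 and 4.35 CPM for Cd74 and 1.24 and 1.42 for H2-Ab1, the other way round, and 1.55 and 1.35 for H2-Aa and 1.51 and 1.28 for H2-Eb1. The ages differ in treatment period and lane too, and the difference between them was not tested. In bulk tissue a lower share of a cell type and less RNA per cell cannot be told apart.

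**Figure D1:**
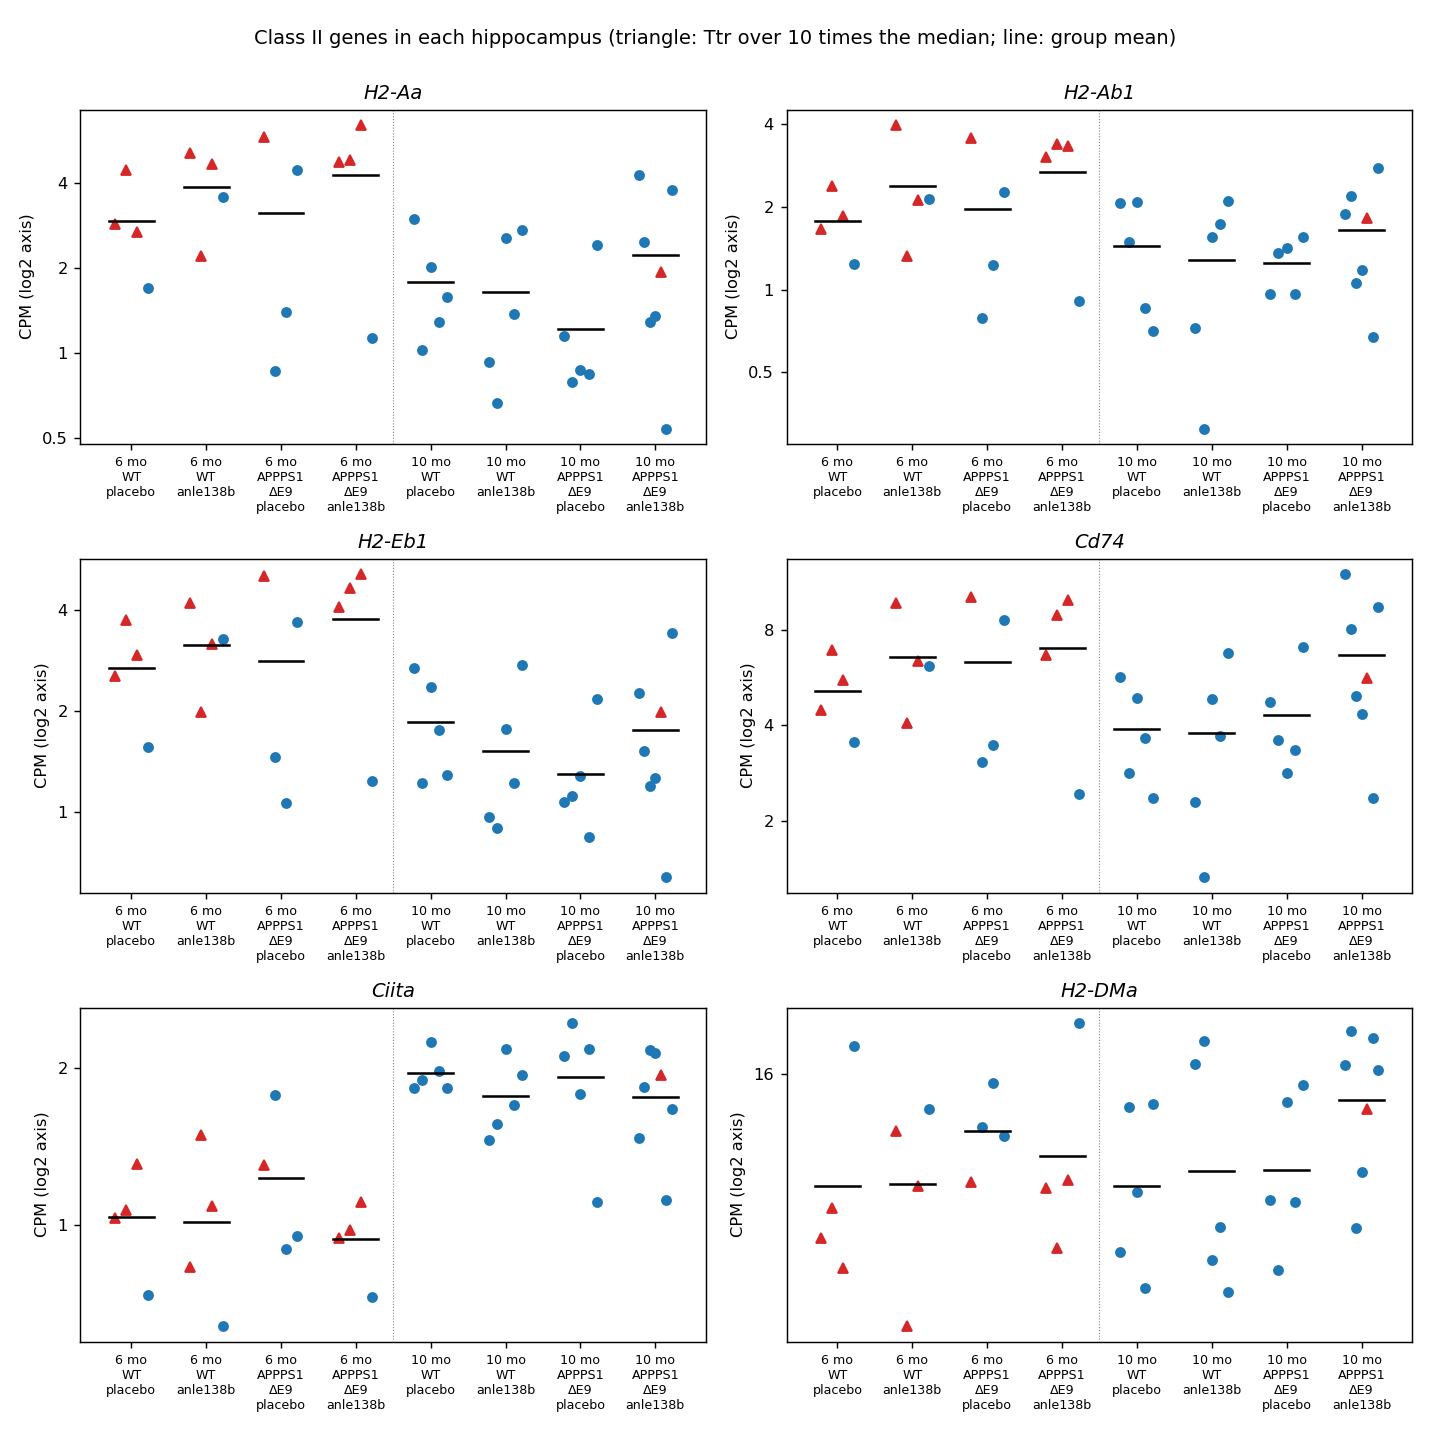
Level of the 6 genes in CPM (vertical axes, log2-spaced) in every mouse of the 8 groups, with the group mean as a line and mice with Ttr over 10 times the median as triangles. The groups of each age overlap for every gene, and the axis of H2-DMa spans only 12.4 to 16.9 CPM whereas that of Cd74 spans 1.33 to 12 CPM.

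At 6 months, genotype and chow were compared in the 4 groups of 4 mice. H2-Aa stood at 2.85, 4.47, 2.68 and 1.70 CPM in the placebo-treated WT mice and at 5.10, 2.20, 4.68 and 3.56 CPM in the anle138b-treated WT mice. In placebo-treated APPPS1ΔE9 mice it was 5.81, 0.866, 1.4 and 4.44 CPM, and in anle138b-treated APPPS1ΔE9 mice 4.75, 4.85, 6.44 and 1.13 CPM. The 4 groups overlapped, and both APPPS1ΔE9 groups held mice above and mice below every placebo-treated WT mouse. Cd74 was 4.48, 6.92, 5.54 and 3.53 CPM in placebo-treated and 9.67, 4.08, 6.36 and 6.15 CPM in anle138b-treated WT mice. It was 10.2, 3.07, 3.48 and 8.55 CPM in placebo-treated and 6.67, 8.88, 9.93 and 2.43 CPM in anle138b-treated APPPS1ΔE9 mice. The mice that were high in H2-Aa were high in Cd74.

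None of the 6 genes was called at 6 months by edgeR's quasi-likelihood test at a Benjamini-Hochberg adjusted p under 0.1 over all genes tested. For genotype the members' count was 0 of 6 under placebo, 0 of 6 under anle138b and 0 of 6 with both chows in the fit, against 0.0715%, 0.047% and 0.17% of all tested genes. For anle138b against placebo it was 0 of 6 in WT mice, where 0% of all genes and 310 genes at an unadjusted p under 0.05 were found, and 0 of 6 in APPPS1ΔE9 mice, against 0.0529%. The interaction of genotype and chow gave 0 of 6 members and 0% of all genes, with 1390 genes at an unadjusted p under 0.05. Of the members, 0 had an unadjusted p under 0.05 in these comparisons, and DESeq2 called 0 as well. So few genes of any kind passed that a count of 0 members is near the background.

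The intervals at 6 months show how little the replicates resolve. Between placebo-treated APPPS1ΔE9 and WT mice H2-Aa differed by a log2 fold change of 0.11 (SE 0.63, edgeR adjusted p = 0.961), with a 95% interval of -1.38 to 1.61, and Cd74 by 0.32, with an interval of -0.74 to 1.37. H2-DMa, the most highly counted member, differed by 0.09 with an interval of -0.10 to 0.28. Under anle138b, H2-Aa was 0.43 higher on the log2 scale in WT mice and 0.43 in APPPS1ΔE9 mice, the latter with an interval of -1.33 to 2.18. Ciita was lower by -0.43 in anle138b-treated than in placebo-treated APPPS1ΔE9 mice, with an interval of -0.97 to 0.12 (edgeR adjusted p = 0.477). The median log2 fold change of the members was 0.136 for genotype with both chows (all tested genes, -0.000683), 0.313 for chow in WT mice (all genes, 0.000912) and 0.257 for chow in APPPS1ΔE9 mice (all genes, -0.0022).

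**Figure D2:**
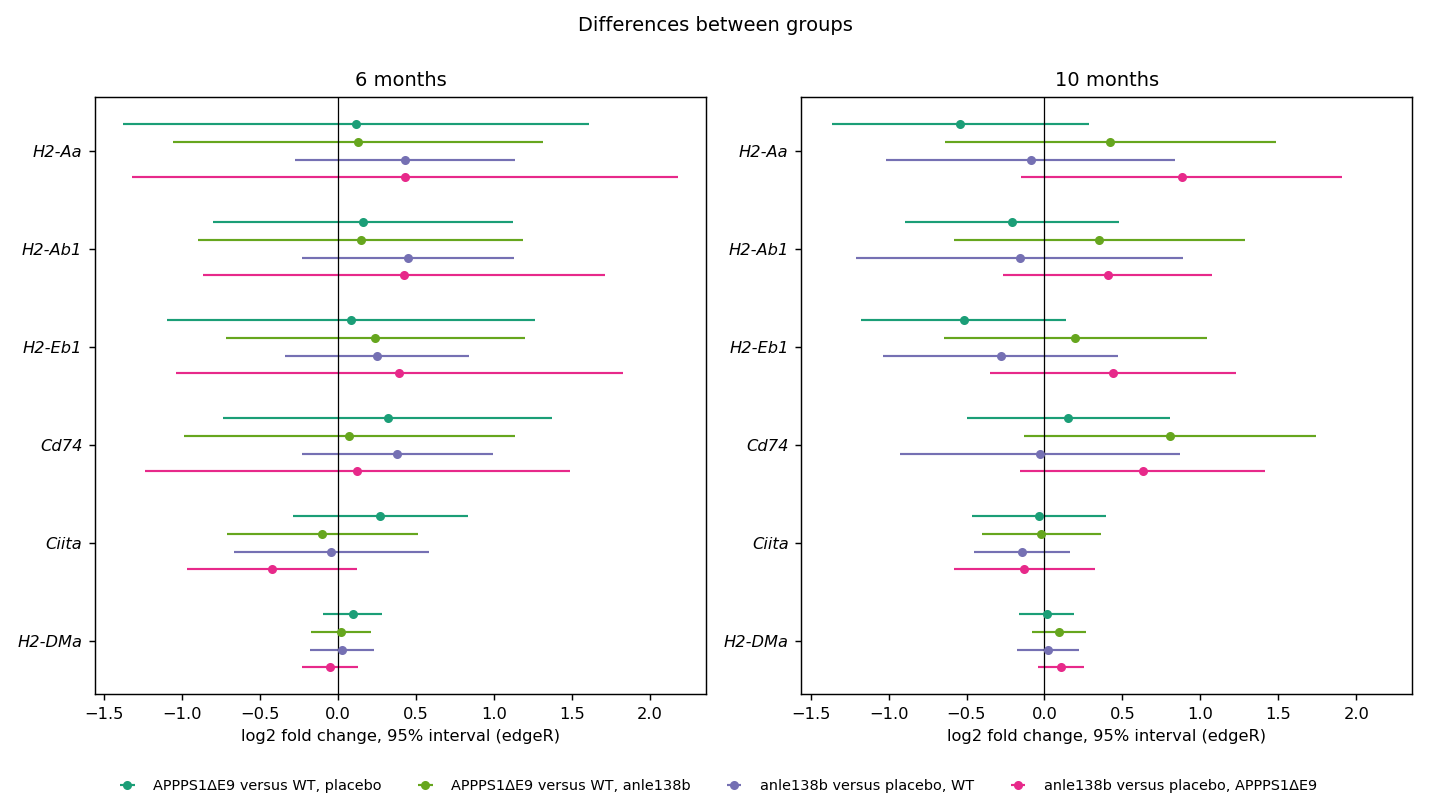
Log2 fold change of each of the 6 genes (points) with its 95% interval (bars) on the horizontal axis, in the 2 comparisons of genotype and the 2 of chow (colors) at 6 months (left) and 10 months (right), from edgeR fits. Every interval includes 0, and the intervals of H2-DMa are the shortest.

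At 10 months H2-Aa was 2.99, 1.02, 2.02, 1.28 and 1.58 CPM in placebo-treated WT mice and 0.927, 0.664, 2.55, 1.38 and 2.73 CPM in anle138b-treated WT mice. Placebo-treated APPPS1ΔE9 mice had 1.15, 0.786, 0.869, 0.843 and 2.41 CPM, and the 7 anle138b-treated APPPS1ΔE9 mice had 0.540 CPM at the lowest, 1.94 at the median and 4.28 at the highest. The last group held both the lowest and the highest mouse of this age. Cd74 was 5.67, 2.84, 4.88, 3.64 and 2.37 CPM in placebo-treated and 2.3, 1.33, 4.83, 3.70 and 6.77 CPM in anle138b-treated WT mice. In APPPS1ΔE9 mice it was 4.73, 3.60, 2.84, 3.33 and 7.07 CPM under placebo, and 2.36 CPM at the lowest, 5.62 at the median and 12 at the highest under anle138b. All these groups overlapped, and of the 48 comparisons of a member between a pair of groups over both ages none was free of overlap. How many of all genes were free of overlap was not computed, so this count is not a result about the members.

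No member was called at 10 months either. The genotype comparison gave 0 of 6 under placebo against 0.324% of all tested genes, 0 of 6 under anle138b against 0.723% and 0 of 6 with both chows against 1.54%, the largest share of any comparison made. The chow comparison gave 0 of 6 in WT mice, where 0% of all genes and 212 genes at an unadjusted p under 0.05 were found, and 0 of 6 in APPPS1ΔE9 mice, where 0% of all genes and 254 genes at an unadjusted p under 0.05 were found. The interaction gave 0 of 6 members and 0% of all genes, with 407 genes at an unadjusted p under 0.05, and the genotype effect at 10 months set against that at 6 months gave 0 of 6 and 0%, with 1089 such genes. Again 0 members had an unadjusted p under 0.05 with edgeR and DESeq2 called 0. The exact permutation tests of single genes between groups, two-sided, had 0.107 as their lowest p.

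For genotype at 10 months the estimates lay on both sides of 0. Under placebo H2-Aa had a log2 fold change of -0.54, H2-Eb1 of -0.52 and Cd74 of 0.15. Cd74 was higher by 0.50 (SE 0.29) on the log2 scale in APPPS1ΔE9 than in WT mice with both chows in the fit, with a 95% interval of -0.10 to 1.11 (edgeR adjusted p = 0.807). In anle138b-treated mice the difference was 0.81 (SE 0.43), with an interval of -0.13 to 1.74 (edgeR adjusted p = 0.838). H2-Aa differed by -0.01 with both chows, with an interval of -0.72 to 0.70, H2-DMa by 0.05 (-0.06 to 0.17) and Ciita by -0.03 (-0.29 to 0.24). The members' median log2 fold change for genotype with both chows was 0.0225, against -0.00528 over all tested genes. With the Y-linked level as a covariate the Cd74 difference was 1.06 (edgeR adjusted p = 0.245), and without the mice with a low Y-linked level it was 1.29 (edgeR adjusted p = 0.413).

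In APPPS1ΔE9 mice of 10 months, H2-Aa was 0.88 (SE 0.47) higher on the log2 scale under anle138b than under placebo, with an interval of -0.15 to 1.91 (edgeR adjusted p = 0.999). The difference was 0.63 for Cd74, with an interval of -0.16 to 1.42, 0.44 for H2-Eb1 and 0.40 for H2-Ab1. In WT mice Cd74 differed by -0.03 between the chows, with an interval of -0.93 to 0.87, and the interaction for H2-Aa was 0.97 with an interval of -0.43 to 2.36. The members' median was 0.422 for chow in APPPS1ΔE9 mice (all genes, 0.00385) and -0.117 in WT mice (all genes, 0.000289). The chows were sequenced on different lanes except for 1 anle138b-treated mouse on the lane of the 5 placebo-treated mice, and this mouse was the highest of all in Cd74. On that lane alone the difference was 1.48 for Cd74 and 1.83 for H2-Aa (edgeR adjusted p = 0.99999 for each), and it rests on that mouse.

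H2-Aa, H2-Ab1, H2-Eb1 and Cd74 moved together from mouse to mouse. As a description over 38 mice, which share the depth of each library, the deviations of log2 CPM from the group mean correlated with r = 0.952 for H2-Aa and Cd74, 0.933 for H2-Aa and H2-Eb1, 0.915 for H2-Eb1 and Cd74, 0.893 for H2-Ab1 and Cd74, 0.853 for H2-Ab1 and H2-Eb1, and 0.85 for H2-Aa and H2-Ab1. Ciita, the coactivator, did not vary with them, with r between 0.0211 and 0.105. H2-DMa ran weakly against them, with r between -0.375 and -0.277, and against Ciita, with r = -0.705. The deviations of H2-DMa and Brd2, with which it shares exonic bases, had r = 0.415, and those of Ciita and Dexi r = 0.000845.

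Of 15027 genes with a mean of at least 1 CPM, the 10 whose deviations were most like the mean deviation of H2-Aa, H2-Ab1, H2-Eb1 and Cd74 over the 38 mice had r between 0.757 and 0.813. They were Bmp6 (0.813), Cyp1b1 (0.809), Cp (0.79), Serping1 (0.788), Ston1 (0.765), Angpt2 (0.763), Zadh2 (0.76), Alx4 (0.76), Mrc2 (0.759) and Slc6a12 (0.757). Bmp6 encodes a bone morphogenetic protein, Cp the ferroxidase ceruloplasmin, Serping1 the C1 inhibitor and Mrc2 a collagen receptor. None of the 10 was on the lists of markers used below.

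Because dissections of the hippocampus can carry choroid plexus or meninges, the members were set beside Ttr. At 6 months Ttr split the mice into 10 with 3698 to 7447 CPM and 6 with 32.1 to 647 CPM. The mice with high Ttr had a median of 4.72 CPM for H2-Aa (2.20 to 6.44), and those with low Ttr 1.55 CPM (0.866 to 4.44). For Cd74 the medians were 6.80 CPM (4.08 to 10.2) and 3.5 CPM (2.43 to 8.55), for H2-Eb1 3.90 (1.98 to 5.11) and 1.51 (1.07 to 3.67), and for H2-Ab1 2.72 (1.32 to 3.98) and 1.24 (0.788 to 2.26). The ranges overlapped through 2 mice of low Ttr. The placebo-treated APPPS1ΔE9 mouse 4 had 8.55 CPM of Cd74 and 4.44 CPM of H2-Aa at 147 CPM of Ttr, and the anle138b-treated WT mouse 4 had 6.15 and 3.56 CPM at 207 CPM of Ttr. Ciita had medians of 1.07 and 0.815 CPM, and H2-DMa was lower where Ttr was high, with 14.1 CPM (12.4 to 15.1) against 15.7 CPM (15 to 16.9).

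Within the mice of high Ttr, the level of Ttr itself did not track the members beyond the permutation test. The r was 0.430 to 0.529 for the 4 genes over 10 mice, and the largest, for Cd74, had a permutation p of 0.101 (adjusted p = 0.375 over 198 correlations). At 10 months the only mouse with high Ttr, an anle138b-treated APPPS1ΔE9 mouse with 4090 CPM of Ttr, had 1.94 CPM of H2-Aa and 5.62 CPM of Cd74, the median of its group in both. Without it, the Cd74 difference between anle138b-treated and placebo-treated APPPS1ΔE9 mice was 0.67 on the log2 scale. At 6 months, leaving out the mice with high Ttr left 3 APPPS1ΔE9 mice on placebo and 1 on anle138b, and the chow difference turned to -1.0 for H2-Aa, -1.07 for Cd74, -0.77 for H2-Eb1 and -0.66 for H2-Ab1 (edgeR adjusted p = 0.913 for Cd74). The genotype difference with both chows turned to -0.48 for H2-Aa and -0.27 for Cd74, with 1 WT mouse left on each chow, so that single mice decide these signs. Leaving out the placebo-treated APPPS1ΔE9 mouse 1 alone brought the latter difference to -0.10 for H2-Aa. With the choroid plexus level as a covariate and all mice in the fit, the chow difference in APPPS1ΔE9 mice was -0.38 for H2-Aa and -0.52 for Cd74, and the genotype difference kept its sign, at 0.61 and 0.68 under placebo and 0.25 and 0.31 with both chows.

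The meninges were followed by the summed level of 12 genes of the fibroblasts and arachnoid barrier cells, Dcn, Igf2 and Slc6a13 among them, all of them detected in every mouse. Igf2, which the choroid plexus expresses as well, and Dcn made up most of it, at a median of 69% of the sum at 6 months and 50.7% at 10 months. The median of Igf2 was 204 CPM at 6 and 42.9 CPM at 10 months, whereas that of Col1a1 was 6.91 and 6.80 CPM. The sum ranged from 158 to 596 CPM at 6 months and from 74.1 to 412 CPM at 10 months, without a mouse above 3 times the median of 236.7 CPM. At 6 months it was 330 to 596 CPM in the mice with high Ttr and 158 to 380 CPM in those with low Ttr. The 2 mice of low Ttr with high class II levels were among those with more of it, at 380 CPM for the placebo-treated APPPS1ΔE9 mouse 4 and 257 CPM for the anle138b-treated WT mouse 4. No gene of the list was called between groups, where at most 1.54% of all tested genes were called in any comparison. The list's median log2 fold change for genotype with both chows was 0.177 at 6 months (all tested genes, -0.000683). At 10 months it was -0.374 (all tested genes, -0.00528), so the genotypes were not shown to hold the same meningeal level.

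At 6 months the class II genes followed the meningeal genes closely. Over 16 mice, as deviations from the group mean, r was 0.924 for H2-Aa (rho 0.924, permutation p = 0.00038, adjusted p = 0.0108), 0.909 for H2-Ab1 (rho 0.871), 0.925 for H2-Eb1 (rho 0.900) and 0.921 for Cd74 (rho 0.877), with adjusted p of 0.0108 to 0.0119 by permutation within groups over 198 correlations. Without the 2 mice farthest from the median of the meningeal level, r was 0.865 to 0.883. Because Ttr split these mice, the relation was computed again within each set, a choice made after seeing the data. Here the values were not centred on the group, and the permutations ran over all mice of a set. In the 10 mice of high Ttr, r was 0.947 for H2-Aa, 0.898 for H2-Ab1, 0.893 for H2-Eb1 and 0.886 for Cd74 (permutation, adjusted p = 0.00288 each over 36 correlations). In the 6 mice of low Ttr, r was 0.870 for H2-Aa (exact permutation, adjusted p = 0.0406), 0.825 for H2-Ab1 (adjusted p = 0.0722), 0.901 for H2-Eb1 and 0.937 for Cd74 (adjusted p = 0.01 each). Over 4 of the 6 mice, without the 2 farthest, the r for Cd74 was 0.733. Centred on the group and permuted within it, the 10 mice of high Ttr gave 0.943 for H2-Aa, 0.868 for H2-Ab1, 0.918 for H2-Eb1 and 0.854 for Cd74 (permutation, adjusted p = 0.0385, 0.0703, 0.0583 and 0.0778 over 66 further correlations), and none passed without the 2 farthest mice, at r = 0.776 to 0.901. The 6 mice of low Ttr were too few for this. Without Igf2 and Dcn, the 10 other meningeal genes gave 0.904, 0.892, 0.945 and 0.924 in the same order over the 16 mice (permutation, adjusted p = 0.00718, 0.00718, 0.00385 and 0.00385).

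**Figure D3:**
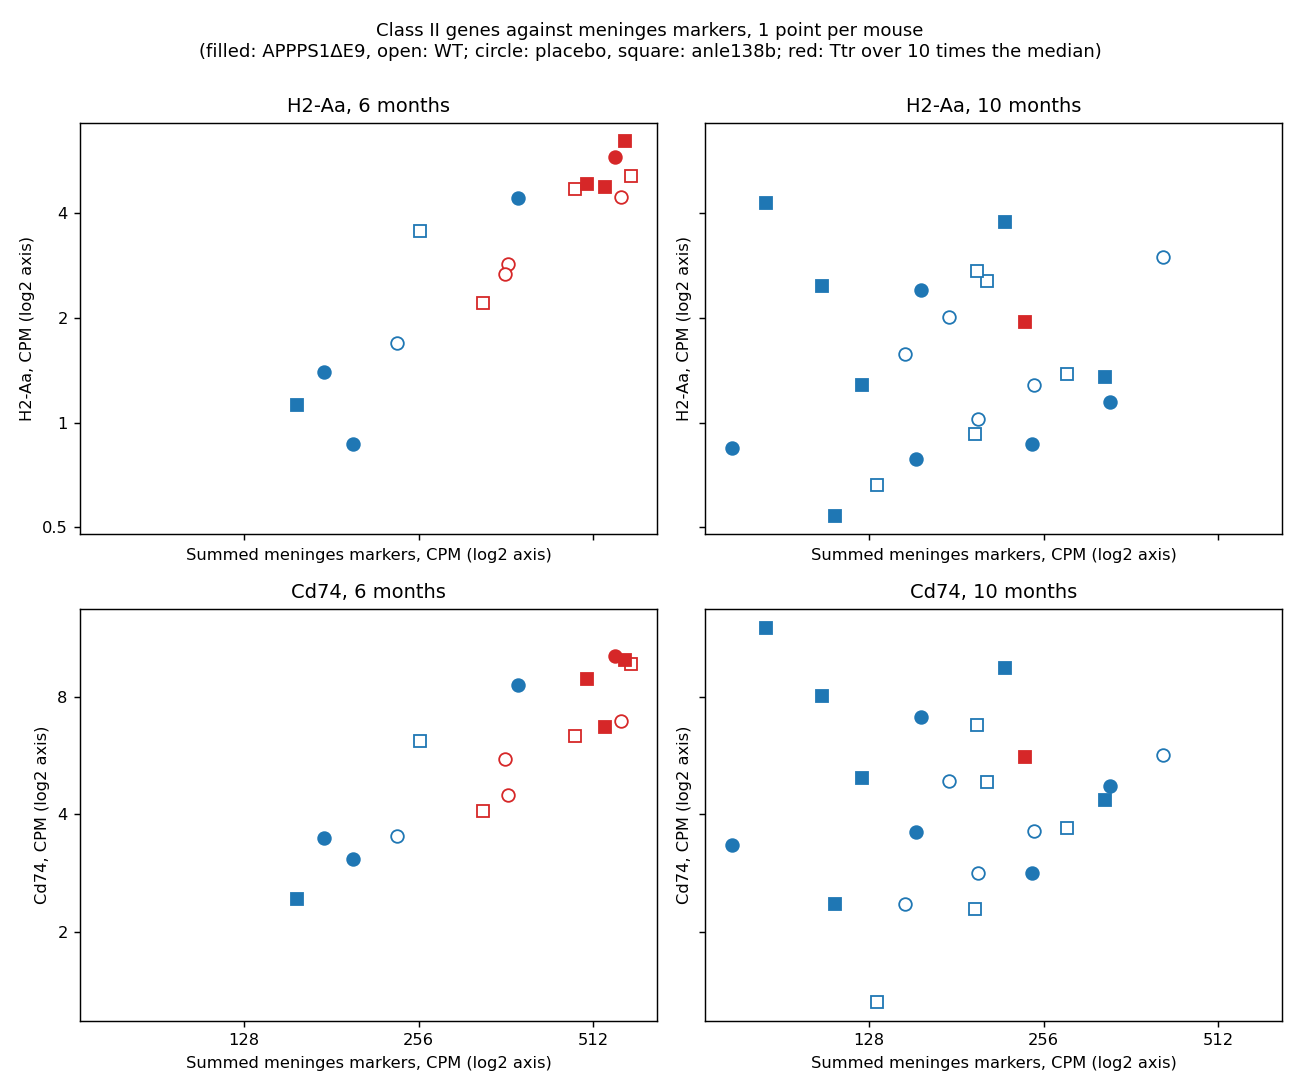
Level of H2-Aa (top) and Cd74 (bottom) in CPM against the summed level of 12 meningeal genes in CPM, both axes log2-spaced, a point for each mouse, at 6 months (left) and 10 months (right). Filled points are APPPS1ΔE9 and open points WT mice, circles placebo and squares anle138b, and red marks Ttr over 10 times the median. At 6 months both genes climb with the meningeal level among the red and among the blue points, and at 10 months the points scatter for this sum of 12 genes.

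At 10 months the relation depended on the genes summed. With all 12 genes, over 22 mice, r was 0.147 for H2-Aa, 0.289 for H2-Ab1, 0.288 for H2-Eb1 and 0.157 for Cd74, with adjusted permutation p of 0.443 to 0.703. Within the 21 mice of low Ttr it was -0.00937 to 0.280. Without Igf2 and Dcn, r over the 22 mice was 0.537 for H2-Aa, 0.643 for H2-Ab1, 0.550 for H2-Eb1 and 0.529 for Cd74 (permutation, adjusted p = 0.0519, 0.0230, 0.0468 and 0.0585 over the 66 correlations), but 0.387 to 0.505 and no longer past the test once the 2 farthest mice were left out (adjusted p = 0.145 to 0.229). The highest mouse of this age, the anle138b-treated APPPS1ΔE9 mouse 1 with 12 CPM of Cd74 and 4.28 CPM of H2-Aa, was not a mouse of high Ttr and had 84.8 CPM of the 12 meningeal genes, the lowest level of its group. The difference between the ages in this relation was itself not tested.

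Border-associated macrophages, which line the meninges, the vessels and the choroid plexus and carry class II, were followed by 8 genes (Mrc1, Cd163, Lyve1, Pf4, F13a1, Ms4a7, Cbr2 and Stab1), each detected in every mouse. Stab1, with a median of 18.9 CPM, made up most of their sum, and Mrc1 came next with 4.2 CPM. The medians of Stab1 and Cd163 were higher at 10 than at 6 months, and those of the other genes lower. Over 38 mice r with their level was 0.666 for H2-Aa, 0.714 for H2-Ab1, 0.670 for H2-Eb1 and 0.694 for Cd74 (permutation, adjusted p = 0.00396 each). Within 6 months it was 0.822, 0.822, 0.882 and 0.845 in the same order (adjusted p = 0.0115, 0.0168, 0.00396 and 0.00396). Within 10 months it was 0.542, 0.636, 0.490 and 0.588, and only H2-Ab1 passed (adjusted p = 0.0875), with an r of 0.484 once the 2 farthest mice were left out. In the 21 mice of 10 months with low Ttr, with no centring on the group, r was 0.604, 0.682, 0.625 and 0.498 (permutation, adjusted p = 0.01, 0.00288, 0.00726 and 0.046 over the 36 added correlations). Centred and permuted within groups, these 21 mice gave 0.591, 0.724, 0.586 and 0.621 (permutation, adjusted p = 0.0385, 0.0125, 0.0385 and 0.0342 over the 66 correlations). Without the 2 farthest mice none of the 4 passed (permutation, adjusted p = 0.145 to 0.163). In the 10 mice of 6 months with high Ttr the uncentred r was 0.924, 0.880, 0.928 and 0.873, while none of the 4 passed in the 6 mice with low Ttr. Centred and permuted within groups, these 10 mice gave 0.946, 0.867, 0.913 and 0.843 (permutation, adjusted p = 0.0324, 0.1875, 0.0479 and 0.0722 over the 66 correlations). H2-Ab1 did not pass there, and none of the 4 passed without the 2 farthest mice, at r = 0.376 to 0.927.

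**Figure D4:**
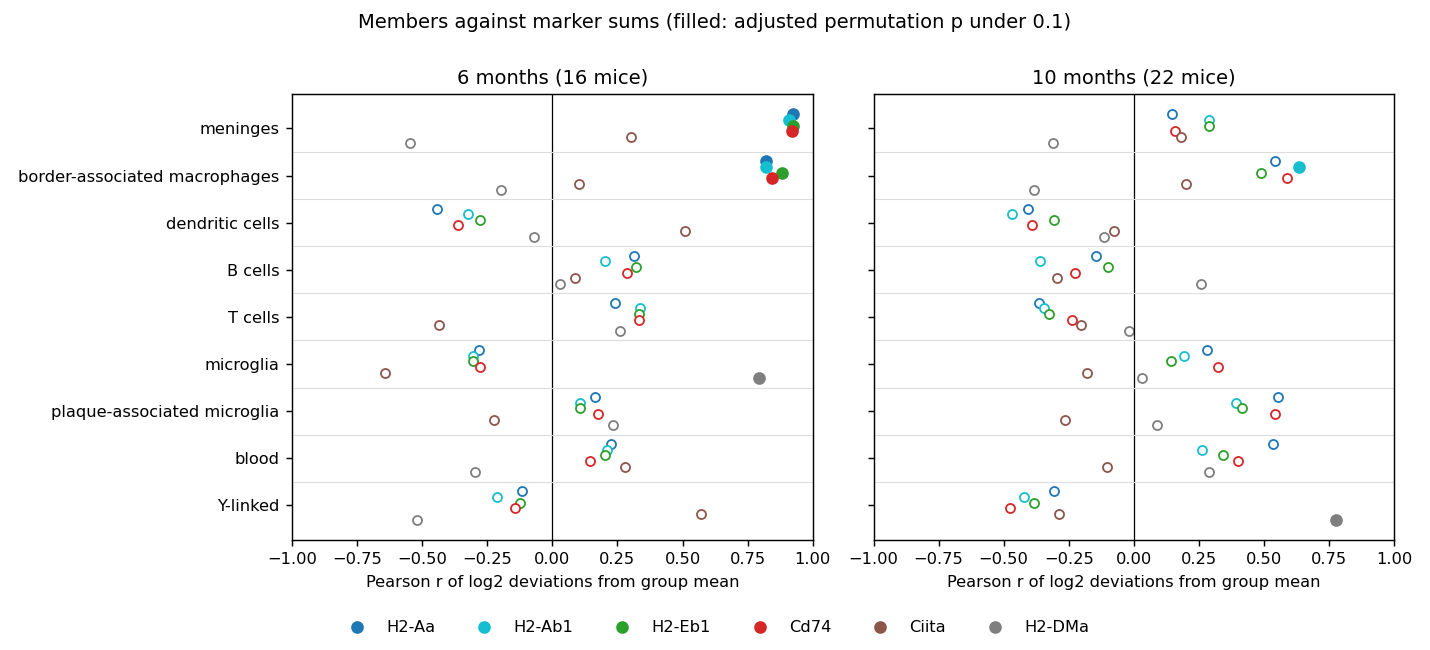
Pearson r (horizontal axis) of the log2 deviations from the group mean of each member (colors) with those of 9 marker sums (rows), over 16 mice of 6 months (left) and 22 mice of 10 months (right), filled where the adjusted permutation p was under 0.1. At 6 months H2-Aa, H2-Ab1, H2-Eb1 and Cd74 lie together at the right for the meningeal and macrophage sums, and Ciita and H2-DMa lie apart from them.

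B cells and dendritic cells, which carry class II, and T cells, which read it, were followed by 8 genes each. The B cell markers summed to 0.826 to 2.58 CPM per mouse, with Pax5, Cr2 and Cd79a detected in all 38 mice and Blk at 0 counts in 28, Fcrla in 25 and Ms4a1 in 14. The T cell markers summed to 2.28 to 4.27 CPM, with Lck, Trac and Cd4 detected in all mice and Cd3e and Cd3d at 0 counts in 12 each. Ifng, which encodes the main inducer of Ciita, was at 0 in 31 mice. The dendritic cell markers summed to 20 to 32.5 CPM, next to 20.3 to 44.4 CPM for the macrophage markers, with 6 of the 8 detected in all mice and Xcr1 and Ccr7 at 0 in 20 each. Flt3 and Zbtb46, with medians of 12 and 10.1 CPM, made up most of the dendritic sum, so that it says little about the other genes of that list. Lck, at a median of 1.78 CPM, was the highest of the T cell markers. Clec9a and Cd209a had medians of 0.472 and 0.624 CPM, like Ms4a7 and Pf4 of the macrophage list at 0.534 and 0.624 CPM. None of these 3 lists, nor the microglial list, passed with H2-Aa, H2-Ab1, H2-Eb1 or Cd74.

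H2-DMa was steadier than the chains, and the markers it followed differed between sets of mice. It correlated with the microglial list at 6 months, with r = 0.793 over 16 mice (permutation, adjusted p = 0.0296) and 0.858 without the 2 farthest mice. Like H2-DMa, the microglial sum was lower where Ttr was high, at 326 to 397 CPM against 387 to 509 CPM. Their relation was not computed within the sets of high and low Ttr. At 10 months H2-DMa correlated with the Y-linked level, with r = 0.776 over 22 mice (permutation, adjusted p = 0.018), but without the 2 farthest mice the adjusted p was 0.18 at r = 0.728. In the 10 mice of 6 months with high Ttr it rose with the meningeal level (r = 0.854, permutation, adjusted p = 0.0041), but with the 2 farthest mice left out r was 0.644 and no longer past the test (adjusted p = 0.233). It rose there with the macrophage level too, at an uncentred r of 0.857 (permutation, adjusted p = 0.00704). Centred and permuted within groups, r was 0.958 (permutation, adjusted p = 0.0184). Without the 2 farthest mice neither passed, at r = 0.733 and 0.810 (permutation, adjusted p = 0.117 and 0.145). In the mice of low Ttr the sign was the opposite for both levels and did not pass. Over 6 mice of 6 months r was -0.633 for the meningeal and -0.799 for the macrophage level, and over 21 mice of 10 months -0.403 and -0.389.

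The Y-linked level and class II levels could be set side by side in the WT mice of 10 months. The 6 mice with a low Y-linked level had 3.64 to 6.77 CPM of Cd74, and the 4 others 1.33 to 2.84 CPM, without overlap. H2-DMa was 12.8 to 14.2 CPM in the former and 15.5 to 16.6 CPM in the latter, again without overlap but the other way round. H2-Aa was 1.28 to 2.99 and 0.664 to 1.58 CPM, H2-Eb1 1.22 to 2.73 and 0.898 to 1.29 CPM, and the meningeal level 176 to 412 and 132 to 198 CPM. Among the WT mice of 6 months, the 5 with a low Y-linked level had 3.53 to 9.67 CPM of Cd74 and the 3 others 4.08 to 6.36 CPM, with overlap, and H2-DMa ran the other way there, at 13.6 to 16.5 against 12.4 to 14.3 CPM. These 5 mice spanned 140 to 7447 CPM of Ttr, whereas the 3 others all had high Ttr, at 6004 to 6392 CPM, so the sets differ in Ttr as well. These sets are not groups of the study and were not tested. Of the APPPS1ΔE9 mice of 10 months, 11 of 12 had a high Y-linked level, so that the WT mice with which they are compared differ from them in this respect as well as in genotype.

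The ratio of Cd74 to each chain was examined after their values had been seen, so that its p-values are no independent support for a pattern chosen on the same mice. At 10 months Cd74 was 1.5 to 2.83 times H2-Aa in CPM in the 10 WT mice (median 2.45) and 2.51 to 4.58 times in the 12 APPPS1ΔE9 mice (median 3.26). The ratio was higher by 1.54-fold in APPPS1ΔE9 mice (two-sided exact permutation within chow, p = 5.51e-05, adjusted p = 0.00165 over 30 tests). Within placebo the fold was 1.68, without overlap between the 5 and 5 mice, and within anle138b it was 1.41 (exact permutation, adjusted p = 0.0595 in each). The ratio of Cd74 to H2-Eb1 was 1.48 to 3.03 in WT (median 2.22) and 2.21 to 5.30 in APPPS1ΔE9 mice (median 3.57), higher by 1.61-fold (exact permutation p = 0.00016, adjusted p = 0.0024). The ratio of Cd74 to H2-Ab1 differed by 1.23-fold, within the spread of the mice (exact permutation p = 0.122, adjusted p = 0.33). At 6 months the folds of the ratios to H2-Aa, H2-Ab1 and H2-Eb1 were 1.15, 1.03 and 1.06, not past the test (exact permutation p = 0.243, 0.692 and 0.549).

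**Figure D5:**
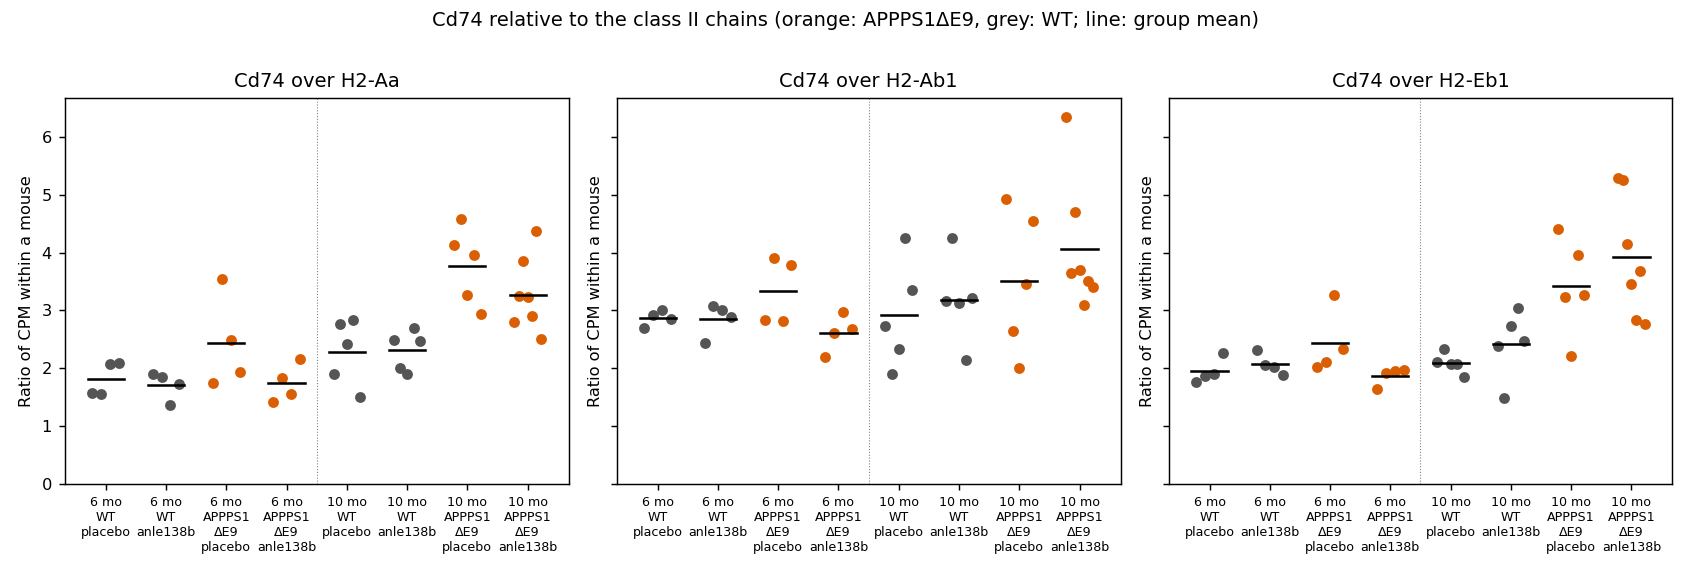
Ratio of the CPM of Cd74 to that of H2-Aa, H2-Ab1 and H2-Eb1 (vertical axes) in every mouse (points, orange for APPPS1ΔE9 and grey for WT) of the 8 groups, with the group mean as a line. At 10 months the ratios to H2-Aa and H2-Eb1 lie higher in the APPPS1ΔE9 than in the WT groups.

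The ratio is taken within a library, so it does not depend on how libraries are scaled, and at 10 months it did not rest on a single mouse. With each mouse left out in turn the exact permutation p was 1.72e-05 to 0.000192 for H2-Aa and 5.01e-05 to 0.000565 for H2-Eb1. Without the mice with a low Y-linked level the log2 difference was 0.68 for H2-Aa (exact permutation p = 0.0017) and 0.84 for H2-Eb1 (exact permutation p = 0.0051). A difference in a ratio does not say which of its genes moved, and the ratio to H2-Ab1 did not pass. Genotype and lane cannot be told apart here either.

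The rest of the pathway was read from a list of 25 other genes, of which 23 were matched and 20 tested at 10 months. With both chows in the fit, 9 of the 20 rose in APPPS1ΔE9 mice and 0 fell, with 1.54% of all tested genes called, and the list's median was 0.194 on the log2 scale against -0.00528 over all genes. Of these 9, 5 encode proteases of the endosomes and lysosomes. Ctss, the cathepsin that cleaves the last stage of the invariant chain in antigen-presenting cells, rose by 0.86 (edgeR adjusted p = 2.48e-06). Ctsd, a lysosomal aspartic protease, rose by 0.85 (edgeR adjusted p = 1.87e-08), and Ctsl, Ctsb and Lgmn rose by 0.34, 0.20 and 0.22. Ctss stood at 75.8 and 74.5 CPM on average in placebo-treated and anle138b-treated WT mice and at 132 and 143 CPM in the APPPS1ΔE9 mice, and all WT mice (61.9 to 84.7 CPM) lay below all APPPS1ΔE9 mice (106 to 179 CPM).

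H2-Oa and H2-Ob, which encode the chains of H2-O, a modulator of H2-DM, rose by 1.02 (SE 0.19, edgeR adjusted p = 0.00336) and 0.84 (SE 0.22, edgeR adjusted p = 0.0689). They remained very low, with H2-Oa at 0.323 and 0.340 CPM in WT and 0.616 and 0.745 CPM in APPPS1ΔE9 mice under placebo and anle138b, and H2-Ob at 0.726, 0.882, 1.45 and 1.47 CPM in the same order. Ifi30, a lysosomal thiol reductase, rose by 0.44 (edgeR adjusted p = 0.0949) and the costimulatory gene Cd86 by 0.61 (edgeR adjusted p = 0.0497). H2-DMb1, the partner of H2-DMa, had 0.47 (edgeR adjusted p = 0.142) and Rfx5, a subunit of the RFX complex, -0.18 (edgeR adjusted p = 0.120). Without the mice with a low Y-linked level, 5 of the list were called, and H2-Oa, H2-Ob, Ifi30 and Lgmn were not. The count was 6 without the anle138b-treated WT mouse 1 and likewise without mouse 2 of that group, and 6 with the meningeal level as a covariate, where H2-Ob, Ifi30 and Cd86 were lost.

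Under placebo alone 2 of 20 were called, Ctss and Ctsd, and under anle138b alone 3 of 20, with Ctsl added, against 0.324% and 0.723% of all tested genes. With the Y-linked level as a covariate these counts became 0 and 10. At 6 months 0 of the list were called in any comparison by edgeR, and 0 between the chows at 10 months. Of the 12 genes on the way from interferon γ to CIITA, 10 were tested at 10 months and 0 were called, with a median of 0.0727 for genotype with both chows. In the same mice 9 of 12 genes of plaque-associated microglia were called higher, with a median of 1.29, and 6 of 8 microglial genes, where 1.54% of all tested genes were called and their median was -0.00528. The microglial sum was 308 to 395 CPM in WT and 401 to 607 CPM in APPPS1ΔE9 mice, and the plaque-associated sum 171 to 230 and 276 to 445 CPM, so both were separate between the genotypes at an age at which none of the 6 class II members was called. Within groups at 10 months, the plaque-associated level correlated with H2-Aa at r = 0.552 (rho 0.487) and with Cd74 at r = 0.541 (rho 0.547) over 22 mice, not past the correction (permutation p = 0.0179 and 0.0163, adjusted p = 0.153 and 0.147), and without the 2 farthest mice r was 0.476 and 0.479. The part of these cells in the proteases' change was not tested.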

How the data were processed

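Total RNA of the hippocampus was extracted with TRIZOL, and mRNA libraries were made with a TruSeq protocol. The authors mapped the reads to mm10 with STAR, counted them with HTSeq (intersection-nonempty) and deposited raw counts per gene, without normalization. The annotation release and strandedness were not given in the sources used here. Groups came from the sample titles.

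From the deposited counts, genes were kept by filterByExpr of edgeR (minimum count 10, minimum total count 15), normalized with TMM and tested with the quasi-likelihood test in 13 comparisons, each adjusted over all genes tested and called at an adjusted p under 0.1. Version 4.0.16 of edgeR, 3.58.1 of limma and 1.42.0 of DESeq2 ran in R 4.3.3. GENCODE M21 on GRCm38 gave symbols for 48349 of 48709 genes, and their exons and positions. Log2 CPM had a prior count of 2. Correlations were tested by permutation within groups (1e+05 resamples), or, within the sets of high and low Ttr, over all mice of the set (exactly for 6 mice), and adjusted over 198 correlations and, separately, over 36 and 66 added after seeing the data. The alternatives without mice of low Y-linked level and the Cd74 ratios were also chosen after seeing the data. Scripts were tested on simulated data.

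The 6 genes, the lists of pathway and marker genes and the tests were chosen with earlier results of these data known. The genes named were the members, the pathway genes called in any comparison, the markers, App, Prnp and the 10 genes most like the class II chains and Cd74. H2-DMb1 and Rfx5 were added after their values were seen. Total counts of 15847985 to 31895808 per library put the members other than H2-DMa at 8 to 286 reads, so counting error is part of their spread. Within groups, 75 pairs of libraries differed beyond sampling noise. Each mouse is 1 library, and the p-values measure the spread between these samples.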

Additional observations from a re-analysis of the deposited data

Results flagged for a closer look

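In 48 sets of a gene and a group, 2 had a mouse set apart from the rest of its group by Dixon's test, and chance gives about 1 in 20. H2-Aa was 2.41 CPM in the placebo-treated APPPS1ΔE9 mouse 5 of 10 months, against 0.786 to 1.15 CPM in the others of its group, with a Dixon ratio of 0.779. That mouse had 46.6 CPM of Ttr and 157 CPM of the meningeal genes, neither of them high for its age. H2-Ab1 was 0.909 CPM in the anle138b-treated APPPS1ΔE9 mouse 4 of 6 months, against 3.05 to 3.40 CPM in the others, with a Dixon ratio of 0.861. That mouse had 125 CPM of Ttr and 158 CPM of the meningeal genes, the lowest meningeal level of its age.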

How the results depend on the processing

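In 295 combinations of a comparison and a setting (RLE size factors, DESeq2, all genes without the count filter, a threshold of 0.05, covariates for Y-linked, choroid plexus and meningeal levels, a single fit per age, shared lanes, mice of high Ttr or low Y-linked level left out, the replicate block, and each mouse left out in turn in 170 fits), 0 members were called. Because 0 members were called at 0.1, the threshold of 0.05 on the same fits could only give 0. Of 576 log2 fold changes of members under alternatives 72 changed sign, and 0 of these were called. With the replicate block 0 members were called in every comparison. Same-numbered mice had correlations of deviations of -0.669 to 0.683, so the numbers do not pair the mice, and the block left 1, 1 and 8 pathway genes for genotype under placebo, anle138b and both chows at 10 months. The pathway count for genotype with both chows was 5 to 11 over all alternatives, 11 of them with DESeq2, of which 1 fell. It was 0 to 3 under placebo and 1 to 10 under anle138b, where DESeq2 gave 8 and the single fit 7. For the correlations, 19 of 198 passed, 19 without the 2 farthest mice and 19 with a prior count of 0.5. The log2 difference of the ratio of Cd74 to H2-Ab1 passed an unadjusted 0.05 without 1 of 22 mice (0.39, exact permutation p = 0.0397). Leaving out mice above 3 times the median meningeal level was not run, as there were 0 such mice. Leaving out mice of high Ttr was not run for genotype under anle138b and chow in WT mice at 6 months, where 1 mouse per group was left, and a Y-linked covariate was not run for chow in APPPS1ΔE9 mice at 6 months, whose levels differ by less than 4-fold. The correlations of H2-Aa, H2-Ab1, H2-Eb1 and Cd74 with the meningeal level at 10 months passed without Igf2 and Dcn and not with them, and did not pass once the 2 farthest mice were left out as well.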
